A study of Mus musculus with 9 samples.

Results

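The genes described here are Bnip3, Bnip3l, Fundc1, Bcl2l13 and Pink1, which encode receptors of mitophagy and 1 of its regulating kinases. They were chosen by symbol, found through their Ensembl identifiers in GENCODE M21, and make up 5 of the 49315 identifiers in the count table. All 5 passed the filter on low counts, which left 18211 genes. Poly-A RNA was sequenced in 9 libraries made from pancreatic stellate cells, the fibroblast-like cells of the pancreas, from C57BL6 mice. All cells had become immortal by spontaneous outgrowth, carried lentiviral Cas9 with a guide RNA and were selected with puromycin at 2 ug/mL. R26 normoxia (n = 3) carried the control guide R26 sg1 and was kept at 20% oxygen for 48 h. R26 hypoxia (n = 3) carried the same guide and was kept at 0.5% oxygen for 48 h. HIF1a-ko hypoxia (n = 3) carried the guide HIF1a sg2, against the gene of HIF-1 alpha, the subunit of the transcription factor HIF-1 that oxygen destabilises, and was also kept at 0.5% oxygen for 48 h. The lines were polyclonal, so a HIF1a-ko culture may still hold cells with a working Hif1a. A HIF1a-ko group at 20% oxygen is not analysed here. All HIF1a-ko libraries carried the same guide, so loss of Hif1a, other effects of this guide and differences between the lines cannot be told apart. Whether libraries of 1 group stem from separate cultures is not stated in the labels, so p-values cover only the scatter among these libraries, which may be technical.

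Mitophagy is the removal of mitochondria by autophagy. Receptors in the outer mitochondrial membrane bind proteins of the Atg8 family (LC3 and GABARAP) on the growing autophagosome and so tether the mitochondrion to it. BNIP3 and its paralogue NIX (gene Bnip3l) are controlled largely through their abundance, and Bnip3 is a well-known target of HIF-1. FUNDC1 is a receptor controlled by phosphorylation, and BCL2L13 is a receptor with BCL2-like domains. PINK1 is not a receptor: this kinase gathers on mitochondria that have lost their membrane potential and phosphorylates ubiquitin there. A transcript level does not measure the receptor protein, its phosphorylation or the removal of mitochondria.

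The upstream sequences of Bnip3 and Pink1 are shown because HIF-1 binds DNA at ACGTG or GCGTG, and because these transcripts followed different patterns below. Each is the 250 bases before the RefSeq start of the gene (GRCm38.p6), written 5′ to 3′ on the gene's own strand, with every match to ACGTG or GCGTG on either strand in capitals. Bnip3 lies at chr7:138909507-138909756 (minus strand) and Pink1 at chr4:138326297-138326546 (minus strand).
Bnip3: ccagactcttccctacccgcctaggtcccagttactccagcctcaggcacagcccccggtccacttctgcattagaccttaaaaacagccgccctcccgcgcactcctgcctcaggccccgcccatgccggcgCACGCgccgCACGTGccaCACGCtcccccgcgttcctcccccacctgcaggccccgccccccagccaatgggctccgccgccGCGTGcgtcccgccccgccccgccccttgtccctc
Pink1: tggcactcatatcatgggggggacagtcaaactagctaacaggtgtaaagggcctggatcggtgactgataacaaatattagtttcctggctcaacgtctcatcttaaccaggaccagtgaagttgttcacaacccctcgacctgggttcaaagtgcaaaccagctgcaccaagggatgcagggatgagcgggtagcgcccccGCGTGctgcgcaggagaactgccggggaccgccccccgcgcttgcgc
The Bnip3 window held 5 matches, whose first bases lay 117, 108, 107, 99 and 35 bases before the start. The matches at 108 and 107 lie on opposite strands and share 4 of their 5 bases. The Pink1 window held 1 match, 47 bases before the start, the Bcl2l13 window held 1, and the Fundc1 window held 0. The Fundc1 window (chrX:17572008-17572257, minus strand) lies within the GENCODE M21 span of that gene, 17556564 to 17572325. Its 0 matches therefore do not describe sequence upstream of the GENCODE start. Of 32851 RefSeq windows of this length, 38.6% held at least 1 match and 1.01% held at least 5, with ACGTG in 16.6% and GCGTG in 28.2%. A match describes letters and not a bound site. RefSeq windows were found for 4 of the 5 genes, and Bnip3l was not among them.

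Libraries held 43837809 to 107840223 counts, and 1 library of each group (HIF1a-ko hypoxia 1, R26 hypoxia 3 and R26 normoxia 3) had at least 88451200 counts and is called deeper here, the other 6 shallower. The 7 fibroblast and stellate markers summed to 12337.5 to 19495.8 CPM (a library's counts scaled to a common total with TMM factors) over the 9 libraries. The 5 epithelial markers summed to 12.9 to 103.1, the 5 leukocyte markers to 9.14 to 84.5, the 4 endothelial markers to 4.5 to 13.1 and the 3 adipocyte markers to 0.0378 to 37.9 CPM. The 5 acinar and islet markers summed to 4.29 to 12.8 CPM, with Ins1 and Ins2 at 0 counts in every library. The summed fibroblast and stellate level was 12337.5 to 12871.4 CPM in HIF1a-ko hypoxia against 17874.8 to 19495.8 in R26 hypoxia, where 1 of the 7 genes was higher, 3 were lower and 3 did not pass the test. The acinar and islet sum was 4.29 to 5.17 against 9.9 to 11.5 CPM, and 1 of its 5 genes passed the filter on low counts. The part of these markers in the results below was not tested. The deeper library of each group had the lowest epithelial, leukocyte, endothelial and adipocyte sums of its group. In bulk RNA, fewer cells of a type and less RNA per cell cannot be told apart. Hif1a itself (ENSMUSG00000021109) stood at 194.0, 192.4 and 224.8 CPM in R26 normoxia. The R26 hypoxia libraries read 177.8, 168.7 and 207.1 CPM, with 123.3, 116.9 and 125.0 in HIF1a-ko hypoxia. The 3 HIF1a-ko values lie below all R26 values (against R26 hypoxia, log2 fold change -0.60 ± 0.09 SE, adjusted p = 0.000358), and a guide's small insertions or deletions need not remove a transcript.

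Bnip3 rose most of the 5 genes in low oxygen in control cells, and with the Hif1a guide it lay near the R26 normoxia level. Bnip3 (ENSMUSG00000078566, chromosome 7, 138890836 to 138909519, minus strand, GRCm38) stood at 50.2, 49.9 and 45.1 CPM in R26 normoxia. In R26 hypoxia it stood at 318.2, 318.0 and 316.7 CPM, and with the Hif1a guide at 61.0, 62.9 and 56.5 CPM. The 3 groups did not overlap: every hypoxic control library was far above the rest, and every HIF1a-ko library lay a little above every normoxic one. In control cells Bnip3 was 6.57-fold higher at low oxygen (log2 fold change 2.72 ± 0.06 SE, adjusted p = 1.74e-08), and 35 of the 18211 genes had a higher log2 fold change. In HIF1a-ko hypoxia, Bnip3 was 5.28-fold lower than in R26 hypoxia (log2 fold change -2.40 ± 0.06, adjusted p = 3.11e-08), and 65 genes had a lower value. Against R26 normoxia, Bnip3 in HIF1a-ko hypoxia was still 1.24-fold higher (log2 fold change 0.32 ± 0.06, adjusted p = 0.00157). The rise left in HIF1a-ko cells was 4.37% of that in control cells on the CPM scale.

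Counts of Bnip3 could be mixed with those of near copies. Of the 50-base stretches of its exons, 47.2% also occur in another gene on either strand and 16.5% in the same sense, and Gm45507 overlaps 504 bp of its exons on the opposite strand. Gm45507 held at most 7 counts in any library. Gm16439, a gene that shares Bnip3 sequence, held 5, 14 and 8 counts in R26 normoxia, 67, 59 and 97 in R26 hypoxia and 13, 12 and 10 in HIF1a-ko hypoxia, which on the CPM scale was 1.18 ± 0.27 (SD, n = 3) at its highest group mean. Other genes also share Bnip3 sequence, among them AC160336.1, and their counts are not given here. The extent of mixing was not tested.

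Bnip3l followed the same direction with a smaller change. Bnip3l (ENSMUSG00000022051, chromosome 14, 66985239 to 67008877, minus strand), the gene of NIX, stood at 140.2, 136.3 and 144.0 CPM in R26 normoxia. It stood at 267.9, 277.0 and 310.6 CPM in R26 hypoxia and, with the Hif1a guide, at 136.2, 124.3 and 128.4 CPM. All hypoxic control libraries were above all others, and the HIF1a-ko libraries reached up to, but not into, the normoxic range. Bnip3l was 2.03-fold higher in R26 hypoxia than in R26 normoxia (log2 fold change 1.02 ± 0.06 SE, adjusted p = 8.13e-06), and 529 genes had a higher value. In HIF1a-ko hypoxia it was 2.2-fold lower than in R26 hypoxia (log2 fold change -1.14 ± 0.06, adjusted p = 8.02e-07). HIF1a-ko hypoxia did not differ from R26 normoxia past the threshold (log2 fold change -0.11, interval of 2 SE either side -0.24 to 0.01, adjusted p = 0.189). That difference passed with depth class as a term in the fit (adjusted p = 0.0345, range over 16 alternatives 0.0345 to 0.538). The deeper library was the highest of its group for Bnip3l in all 3 groups, and the shallower libraries alone gave 1.00 and -1.11 for the first 2 comparisons. A copy, Bnip3l-ps, shares 20.8% of the 50-base stretches of Bnip3l and held 0.668 to 1.62 CPM as group means.

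Fundc1 and Bcl2l13 moved little. Fundc1 (ENSMUSG00000025040, chromosome X, 17556564 to 17572325, minus strand) stood at 36.9, 35.0 and 36.8 CPM in R26 normoxia. The R26 hypoxia libraries read 41.1, 39.0 and 40.7 CPM, with 35.6, 36.5 and 35.2 in HIF1a-ko hypoxia. The R26 hypoxia libraries were above all others, while the other two groups overlapped. Fundc1 was 1.11-fold higher in R26 hypoxia than in R26 normoxia (log2 fold change 0.15 ± 0.05 SE, adjusted p = 0.0385) and 1.13-fold lower in HIF1a-ko hypoxia than in R26 hypoxia (-0.17 ± 0.05, adjusted p = 0.0124). The first call was lost without R26 normoxia 1 (adjusted p = 0.0762), R26 normoxia 2 (0.137), R26 hypoxia 1 (0.103), R26 hypoxia 3 (0.0879) or HIF1a-ko hypoxia 2 (0.0518), and over 16 alternatives adjusted p ran from 0.0117 to 0.137. The second was lost without HIF1a-ko hypoxia 3 (adjusted p = 0.0619), with no filter on low counts (0.0612) and in the shallower libraries (0.0585), and over 16 alternatives adjusted p ran from 0.00783 to 0.0625. In the shallower libraries the first call was lost as well (0.0626), as it was with no filter (0.0804).

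Bcl2l13 (ENSMUSG00000009112, chromosome 6, 120836212 to 120892842, plus strand) was the only 1 of the 5 to be higher with the Hif1a guide than in R26 hypoxia. It stood at 50.9, 52.0 and 51.8 CPM in R26 normoxia. The R26 hypoxia libraries read 49.8, 47.7 and 50.5 CPM, with 60.2, 61.0 and 62.4 in HIF1a-ko hypoxia. The HIF1a-ko libraries were above all 6 R26 libraries. Bcl2l13 was 1.24-fold higher in HIF1a-ko hypoxia than in R26 hypoxia (log2 fold change 0.31 ± 0.04 SE, adjusted p = 0.000176) and 1.19-fold higher than in R26 normoxia (0.25 ± 0.04, adjusted p = 0.00093). Between the R26 groups the libraries did not overlap, but the difference missed the threshold (log2 fold change -0.06, interval -0.15 to 0.02, adjusted p = 0.292). Bid overlaps 628 bp of Bcl2l13 exons on the opposite strand and had group means of 21.9, 10.3 and 19.1 CPM in the normoxic, hypoxic and HIF1a-ko groups. The strand setting of the counting is not given in the sources used here, and the part of Bid reads in the Bcl2l13 counts was not tested.

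**Figure D1:**
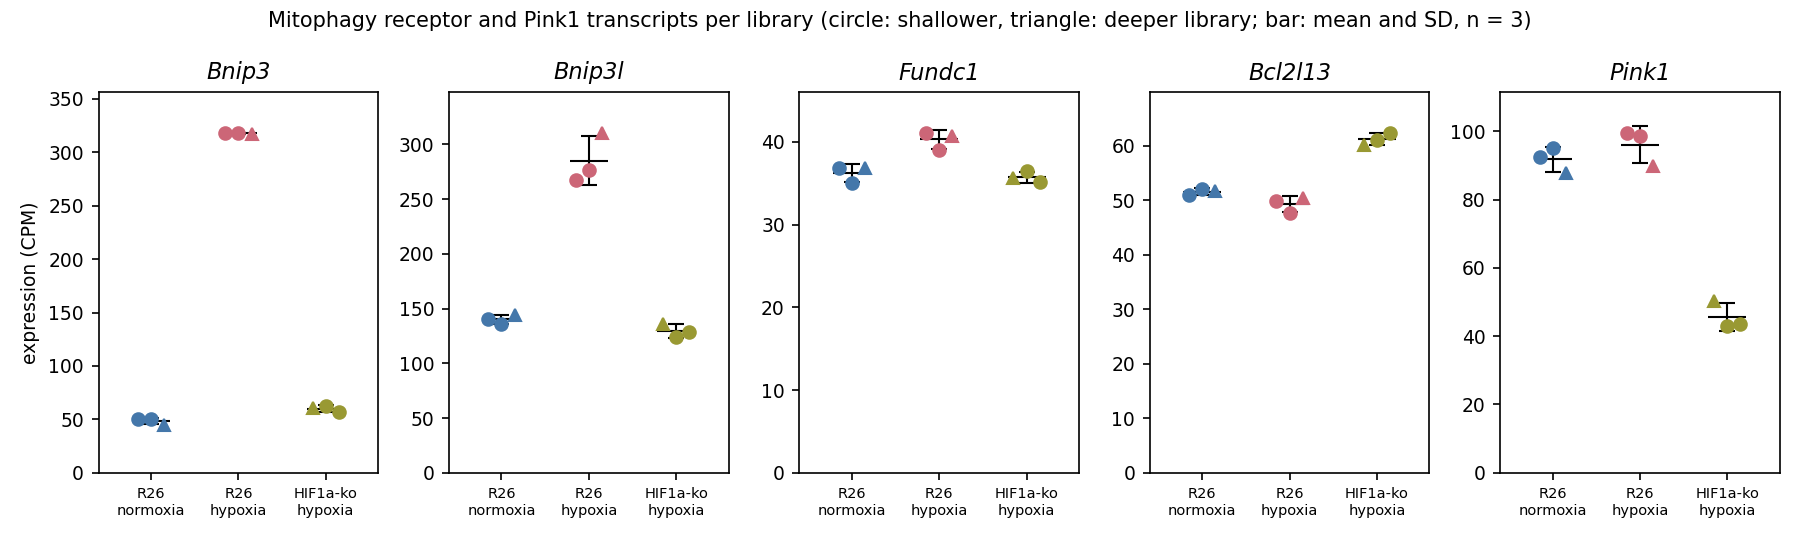
Expression in CPM (vertical axes, each from 0) of the 5 genes in the 3 groups, with circles for the shallower libraries, triangles for the deeper one, and bars for the mean and SD (n = 3). Bnip3 and Bnip3l are high in R26 hypoxia alone, while Pink1 is at 87.9 to 99.6 CPM in the R26 groups and lower, at 42.9 to 50.4 CPM, in the HIF1a-ko group.

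Pink1 showed another pattern: its libraries overlapped between the oxygen levels in control cells and were lower with the Hif1a guide. Pink1 (ENSMUSG00000028756, chromosome 4, 138313409 to 138326307, minus strand) read 92.6, 95.1 and 87.9 CPM in R26 normoxia, then 99.6, 98.7 and 89.9 CPM in R26 hypoxia. In HIF1a-ko hypoxia it stood at 50.4, 42.9 and 43.5 CPM. The R26 groups overlapped, and every HIF1a-ko library was below every R26 library. Between the R26 groups the log2 fold change was 0.06, with an interval of -0.08 to 0.20 (adjusted p = 0.583). With the Hif1a guide, Pink1 was 2.1-fold lower than in R26 hypoxia (log2 fold change -1.07 ± 0.07 SE, adjusted p = 2.39e-06) and 2.01-fold lower than in R26 normoxia (-1.01 ± 0.07, adjusted p = 4.71e-06). With no HIF1a-ko library at 20% oxygen analysed here, an effect of the guide or line at low oxygen alone and one at any oxygen level cannot be told apart. The 2 small RNA genes within Pink1 exons, Gm27646 and Mir7019, held 0 counts in all libraries.

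Counted together, 3 of the 5 genes rose and 0 fell in R26 hypoxia against R26 normoxia. By edgeR, 25.2% of all genes tested changed in that comparison (12.8% higher and 12.4% lower), and the count of falling members was 0 also at an unadjusted p under 0.05 and by DESeq2. The R26 groups did not overlap for 4 of the 5 genes, against 38.4% of all genes. In HIF1a-ko hypoxia against R26 hypoxia, 4 fell and 1 rose, where 45.8% of all genes changed, 23.8% downward and 22.0% upward. Those groups did not overlap for any of the 5, against 54.5% of all genes. In HIF1a-ko hypoxia against R26 normoxia, Bnip3 and Bcl2l13 rose and Pink1 fell, where 41.4% of all genes changed, 19.5% upward and 21.9% downward, and 4 of the 5 did not overlap, against 53.2%. The first 2 comparisons share the R26 hypoxia libraries, and the last 2 share the HIF1a-ko libraries. With the replicate number as a block, 7259 rather than 4591 genes changed in R26 hypoxia against R26 normoxia, and the members called were the same 3. In the shallower libraries 2 members were called in that comparison, without Fundc1.

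**Figure D2:**
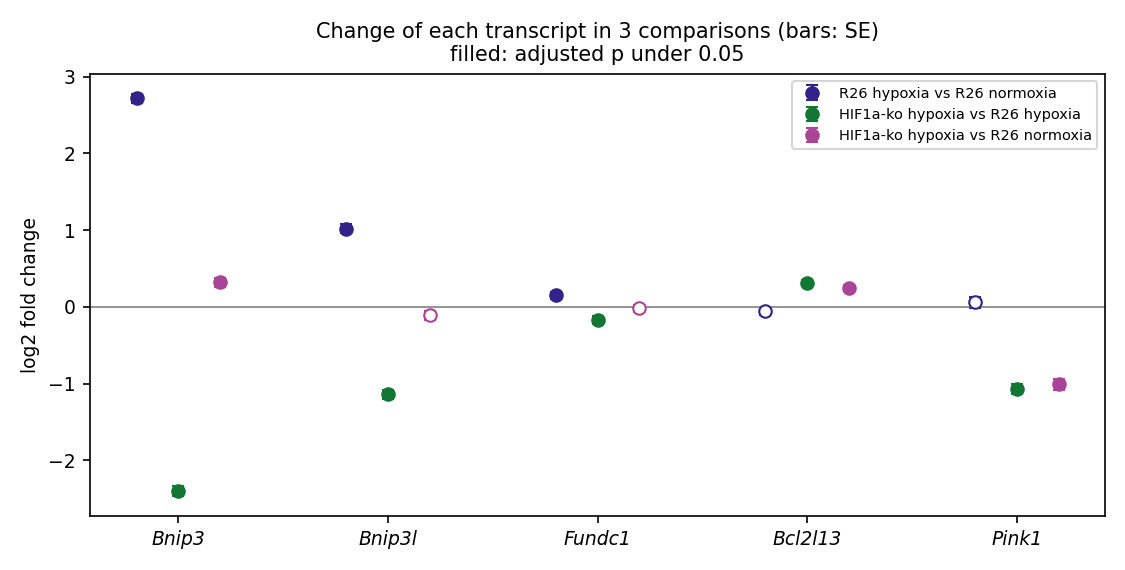
Log2 fold change of each of the 5 genes (horizontal axis) in the 3 comparisons, shown on the vertical axis with bars for the SE, and filled symbols for an adjusted p under 0.05. Bnip3 lies farthest from 0 in the first 2 comparisons (2.72 and -2.40), and Pink1 lies near 0 only between the R26 groups.

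Which of the paralogues Bnip3 and Bnip3l was the more abundant differed between groups. Per kilobase of exon, the ratio of Bnip3 to Bnip3l was 0.61, 0.623 and 0.533 in R26 normoxia, 2.02, 1.96 and 1.74 in R26 hypoxia and 0.764, 0.862 and 0.75 in HIF1a-ko hypoxia. By these counts Bnip3l was the more abundant paralogue in all 6 libraries of the first and last groups, and Bnip3 in all 3 hypoxic control libraries. Of the 50-base stretches, 47.2% of Bnip3 and 20.8% of Bnip3l also occur in other genes on either strand, and 16.5% and 20.8% in the same sense. How such reads were counted is not given, and their part in the order of the paralogues was not tested. The ratio was 3.24-fold higher in R26 hypoxia than in R26 normoxia and 2.41-fold lower in HIF1a-ko hypoxia than in R26 hypoxia. Against the genes without a large oxygen response, the ratio of Bnip3 was higher in R26 hypoxia than in R26 normoxia by 5.92-fold over Fundc1, 6.88-fold over Bcl2l13 and 6.29-fold over Pink1. In HIF1a-ko against R26 hypoxia it was lower by 4.69-fold over Fundc1, 6.56-fold over Bcl2l13 and 2.5-fold over Pink1. None of these 8 comparisons overlapped between groups. Each gave a two-sided exact permutation p of 0.1, also after adjustment over the 8, which is the smallest that 3 against 3 libraries allow.

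Levels per kilobase of exon put the genes on 1 scale. In R26 normoxia the order was Bnip3l (36.3 ± 0.993 CPM per kb, SD, n = 3), Pink1 (34.4 ± 1.37), Bnip3 (21.4 ± 1.27), Fundc1 (15.4 ± 0.463) and Bcl2l13 (5.68 ± 0.0665), and Bnip3l and Pink1 overlapped. In R26 hypoxia Bnip3 led at 140.2 ± 0.357 CPM per kb, followed by Bnip3l at 73.9 ± 5.84, Pink1 at 35.9 ± 2.02, Fundc1 at 17.1 ± 0.48 and Bcl2l13 at 5.43 ± 0.161. In HIF1a-ko hypoxia the order was Bnip3l (33.6 ± 1.57), Bnip3 (26.6 ± 1.44), Pink1 (17.1 ± 1.55), Fundc1 (15.2 ± 0.28) and Bcl2l13 (6.73 ± 0.12). No other neighbours in these orders overlapped. Lengths are those of all annotated exons of a gene merged, 9089 bp for Bcl2l13 against 2265 bp for Bnip3, so a gene with long exons that are not used is placed too low. Sequence shared with other genes may shift these levels as well, and its part was not tested. Summed over the 5 genes, the level was 113.1 ± 1.52 CPM per kb in R26 normoxia, 272.6 ± 3.64 in R26 hypoxia and 99.1 ± 3.36 in HIF1a-ko hypoxia. Bnip3 made up 18.9% ± 0.883 of that sum in R26 normoxia, 51.4% ± 0.811 in R26 hypoxia and 26.8% ± 1.27 in HIF1a-ko hypoxia (SD, n = 3). The share of Pink1 was 30.4% ± 0.922, 13.2% ± 0.91 and 17.2% ± 1.02 in the same order.

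**Figure D3:**
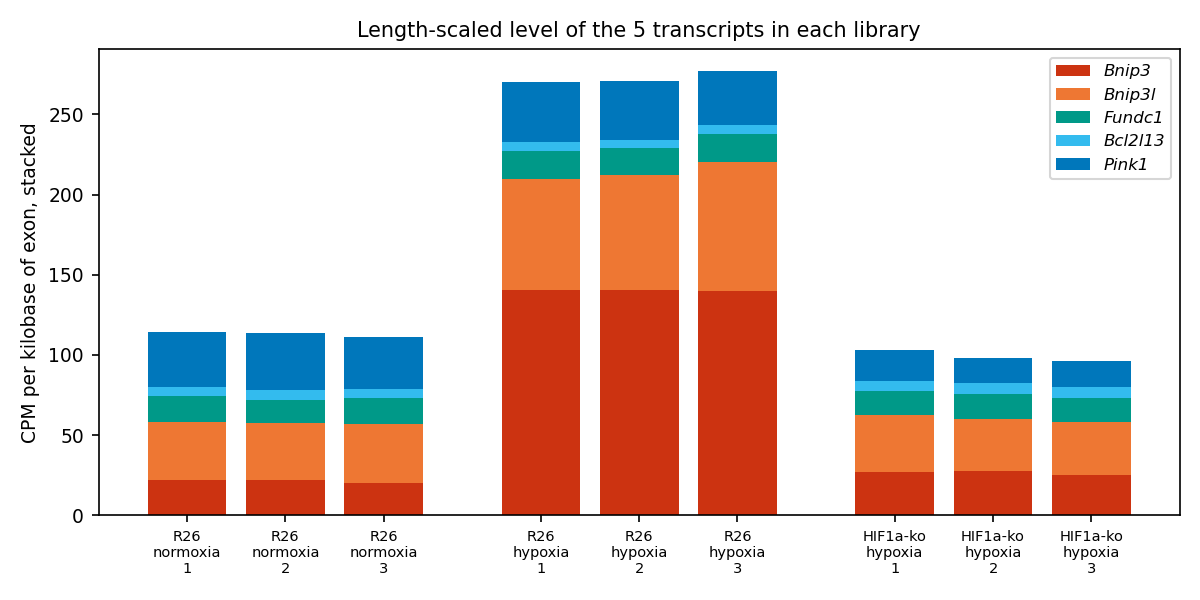
Level in CPM per kilobase of exon (vertical axis, from 0) of the 5 genes, stacked, in each of the 9 libraries. The stack reaches 270.1 to 276.8 in R26 hypoxia, with Bnip3 its largest piece, against 111.4 to 114.4 in R26 normoxia and 96.3 to 102.8 in HIF1a-ko hypoxia.

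Genes with the most similar course over the 9 libraries were ranked by the root mean square difference in centred log2 CPM among 9715 genes. For Bnip3 these were Pfkl (0.188), which encodes a phosphofructokinase of glycolysis, Fam162a (0.247), Gys1 (0.264), which encodes glycogen synthase, Pgm1 (0.282) and Ak4 (0.304), a mitochondrial adenylate kinase. The nearest to Bnip3l were Plod2 (0.081), which encodes a collagen lysyl hydroxylase, Ppp1r13l (0.082) and Loxl2 (0.086), a lysyl oxidase. Ddx5, Fmnl2 and Hgs were nearest to Fundc1 (0.03, 0.036 and 0.037), and Dgkd, Commd8 and Aggf1 to Bcl2l13 (0.029, 0.034 and 0.035). The nearest to Pink1 were Eva1b (0.048), P4ha3 (0.065), which encodes a collagen prolyl hydroxylase subunit, and Nlgn2 (0.073). By this measure any 2 genes that change little lie close together, as Fundc1 and Bcl2l13 do to their neighbours.

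The 7 lists that follow, beside Bnip3 and its group, hold the other genes of the pathway. Over all genes, 12.8% rose and 12.4% fell in R26 hypoxia against R26 normoxia. In HIF1a-ko hypoxia against R26 hypoxia 22.0% rose and 23.8% fell. Whether the list counts differ from these shares was not tested. Of 8 other mitophagy receptors, 1 rose and 4 fell in R26 hypoxia against R26 normoxia (median log2 fold change -0.18, against -0.01 over all genes). Nipsnap1, a matrix protein exposed on damaged mitochondria, went from 27.0 to 21.1 CPM (-0.36 ± 0.07 SE, adjusted p = 0.0067). The count of 5 changed was 2 without R26 normoxia 1 and 3 without R26 normoxia 2, R26 hypoxia 2 or R26 hypoxia 3, and the call of Nlrx1, the gene that rose, was lost in each of these. In HIF1a-ko hypoxia against R26 hypoxia, 2 of the 8 rose and 5 fell (median -0.15), and the 7 changed were 4 without HIF1a-ko hypoxia 2 or 3. Leaving out R26 normoxia 3 or R26 hypoxia 1 left 3 falling, and leaving out R26 hypoxia 3 left 1 rising. Nlrx1, an innate immune receptor of mitochondria, went from 12.3 to 8.15 CPM (-0.59 ± 0.11, adjusted p = 0.00219), and Mcl1, a BCL2 relative, from 145.1 to 188.2 CPM (0.38 ± 0.04, adjusted p = 8.71e-05).

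Of 16 genes around PINK1, 0 rose and 3 fell in R26 hypoxia (median -0.04). At an unadjusted p under 0.05, by DESeq2 and with the replicate block, 2 rose and 4 fell. The changed genes numbered 6 with depth class as a term and 5 in the shallower libraries or without R26 hypoxia 3. Usp35 alone was gained as a rise without R26 hypoxia 1 or HIF1a-ko hypoxia 3. Parl, the protease that cleaves PINK1 in healthy mitochondria, went from 31.0 to 20.8 CPM (-0.58 ± 0.08 SE, adjusted p = 0.000649). Tomm20, a subunit of the import complex of the outer membrane, went from 125.8 to 101.0 CPM (-0.32 ± 0.04, adjusted p = 0.000878). With the Hif1a guide, 6 of the 16 rose and 5 fell against R26 hypoxia (median 0.08), where 22.0% of all genes rose and 23.8% fell. Parl and Pgam5, among the 6 that rose, were both lost without R26 hypoxia 2 (adjusted p = 0.0976 and 0.102), and each without some other libraries. The deubiquitinases Usp35 (23.3 to 10.0 CPM, -1.22 ± 0.09, adjusted p = 3.49e-06) and Usp30 (38.0 to 27.0 CPM, -0.49 ± 0.05, adjusted p = 3.78e-05) fell as Pink1 did. The deubiquitinase Usp8 also fell (-0.23 ± 0.04, adjusted p = 0.00121), while the deubiquitinase Usp15 rose from 77.3 to 107.3 CPM (0.47 ± 0.05, adjusted p = 4.28e-05).

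Among 7 genes listed as cargo adaptors of autophagy or their kinase, 2 rose and 3 fell in R26 hypoxia (median -0.09). The count of 5 was 3 without R26 normoxia 1 or 2. Nbr1, 1 of the 2 that rose, was lost without either of these or R26 hypoxia 3. Sqstm1, the gene of p62, went from 842.5 to 583.3 CPM (-0.53 ± 0.06 SE, adjusted p = 0.000299), with 15.5% of its 50-base stretches found in other genes on the opposite strand. In HIF1a-ko against R26 hypoxia, 3 rose and 2 fell (median 0.14), and 5 rose in the shallower libraries. Calcoco1 went from 216.2 to 105.3 CPM (-1.04 ± 0.04, adjusted p = 1.88e-07) and Optn, the gene of optineurin, from 24.7 to 37.6 CPM (0.60 ± 0.06, adjusted p = 3.51e-05).

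Of the 5 genes of the Atg8 family, to which the receptors bind, 0 rose and 0 fell in R26 hypoxia (median -0.11), also at an unadjusted p under 0.05 and by DESeq2. With the replicate block 2 fell, Gabarap and Gabarapl1, as they did with depth class as a term and in the shallower libraries (adjusted p = 0.0385 and 0.00577 in the last). In HIF1a-ko hypoxia 2 of 5 fell and 0 rose against R26 hypoxia (median -0.24), with 0 rising also at an unadjusted p under 0.05 and by DESeq2. Map1lc3a was 1 of them, at 40.1 and 26.9 CPM (-0.57 ± 0.12 SE, adjusted p = 0.00349). The other, Gabarap (-0.26 ± 0.08, adjusted p = 0.033), was lost without any 1 of R26 hypoxia 1 or 2 or HIF1a-ko hypoxia 1, 2 or 3. Gabarapl1 passed as the third that fell with depth class as a term (adjusted p = 0.0123), in the shallower libraries (0.0002) and without R26 hypoxia 3 (0.0338).

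Of 8 genes for the turnover and partners of BNIP3 and NIX, 0 rose and 2 fell in R26 hypoxia (median -0.12), with 0 rising also at an unadjusted p under 0.05 and by DESeq2. Bcl2, whose protein binds BNIP3, went from 16.4 to 8.66 CPM (-0.92 ± 0.09 SE, adjusted p = 9.2e-05), and Rheb, a small GTPase that binds NIX, from 76.9 to 61.7 CPM (-0.32 ± 0.07, adjusted p = 0.00941). Against R26 hypoxia, 2 rose and 0 fell in HIF1a-ko hypoxia (median 0.10), with 0 falling also at an unadjusted p under 0.05 and by DESeq2. Rheb was 1 of them, at 85.6 CPM (0.47 ± 0.07, adjusted p = 0.000416), while Bcl2 stood at 9.78 CPM (0.18 ± 0.08, adjusted p = 0.125).

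Of 8 kinases and phosphatases that act on FUNDC1 and BNIP3, 0 changed in R26 hypoxia (median 0.00), where 2 rose and 1 fell at an unadjusted p under 0.05 and also with the replicate block, and 1, Pgam5, fell by DESeq2, with depth class as a term, in the shallower libraries and without R26 hypoxia 3. With the Hif1a guide 2 rose and 3 fell (median 0.05), and 3 rather than 5 changed without R26 hypoxia 2, HIF1a-ko hypoxia 1 or HIF1a-ko hypoxia 3. Pgam5, 1 of the 2 that rose, was lost without any 1 of these or R26 hypoxia 1. Src went from 118.4 to 76.9 CPM (-0.62 ± 0.05 SE, adjusted p = 5.8e-06) and Ulk1 from 76.7 CPM to a level 1.53-fold lower (-0.62 ± 0.07, adjusted p = 7.1e-05). Both kinases are known to phosphorylate FUNDC1.

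Of 11 transcription factors linked to Bnip3 or Pink1, 2 rose and 1 fell in R26 hypoxia (median -0.03), and 3 rose and 3 fell with the replicate block. With depth class as a term 3 fell, and without R26 normoxia 3 or R26 hypoxia 2 the fall of Trp53 was lost, leaving 0. Foxo1 went from 35.7 to 48.9 CPM (0.45 ± 0.10 SE, adjusted p = 0.0109). Between the hypoxic groups 2 rose and 5 fell with the guide (median 0.17), Hif1a among those that fell. With depth class as a term, in the shallower libraries or without R26 hypoxia 3, 5 rose and 5 fell, with Nrf1, Rb1 and Trp53 gained (adjusted p = 0.0257, 0.035 and 0.0333 in the last). Atf4, a factor of the integrated stress response, went from 163.9 to 393.0 CPM (1.26 ± 0.08, adjusted p = 1.34e-06), and Foxo3 from 192.8 to 134.2 CPM (-0.52 ± 0.04, adjusted p = 9.65e-06). Epas1, which encodes the HIF-2 alpha subunit, was low, at 3.59 ± 1.53, 3.23 ± 1.99 and 4.02 ± 2.2 CPM (SD, n = 3) in the normoxic, hypoxic and HIF1a-ko groups. The deeper library was the lowest of each group, at 1.86, 0.936 and 1.48 CPM in the same order, against 4.2 to 5.4 CPM in the shallower ones.

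Against R26 normoxia, HIF1a-ko hypoxia had 2 of the 8 other receptors higher and 4 lower. The 16 genes around PINK1 had 6 and 6, and the 7 genes of the cargo adaptor list had 2 and 1. Over all genes, 19.5% were higher and 21.9% lower. Of the Atg8 family 4 of 5 were lower and 0 higher (median -0.42, against -0.01 over all genes), and 2 were called without R26 normoxia 2 or HIF1a-ko hypoxia 3. Gabarap was 1 of these, at 340.1 CPM in R26 normoxia and 254.6 CPM in HIF1a-ko hypoxia (-0.42 ± 0.08 SE, adjusted p = 0.00332). Of the 8 turnover genes 1 was lower and 0 higher, the kinases and phosphatases had 2 higher and 2 lower, and the transcription factors 4 and 4. Csnk2a2, 1 of the 2 kinases that were higher (adjusted p = 0.0441), was lost in the shallower libraries and without any 1 library other than R26 normoxia 2. Nrf1 and Rb1, 2 of the 4 factors that were higher, were lost without R26 normoxia 1, R26 normoxia 2 or HIF1a-ko hypoxia 1. Rheb, of the turnover genes, passed as higher with depth class as a term (adjusted p = 0.0252), and Fundc2, 1 of the 2 receptors that were higher, was lost without HIF1a-ko hypoxia 2. None of the Atg8 or turnover genes was higher at an unadjusted p under 0.05 or by DESeq2 in this comparison.

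**Figure D4:**
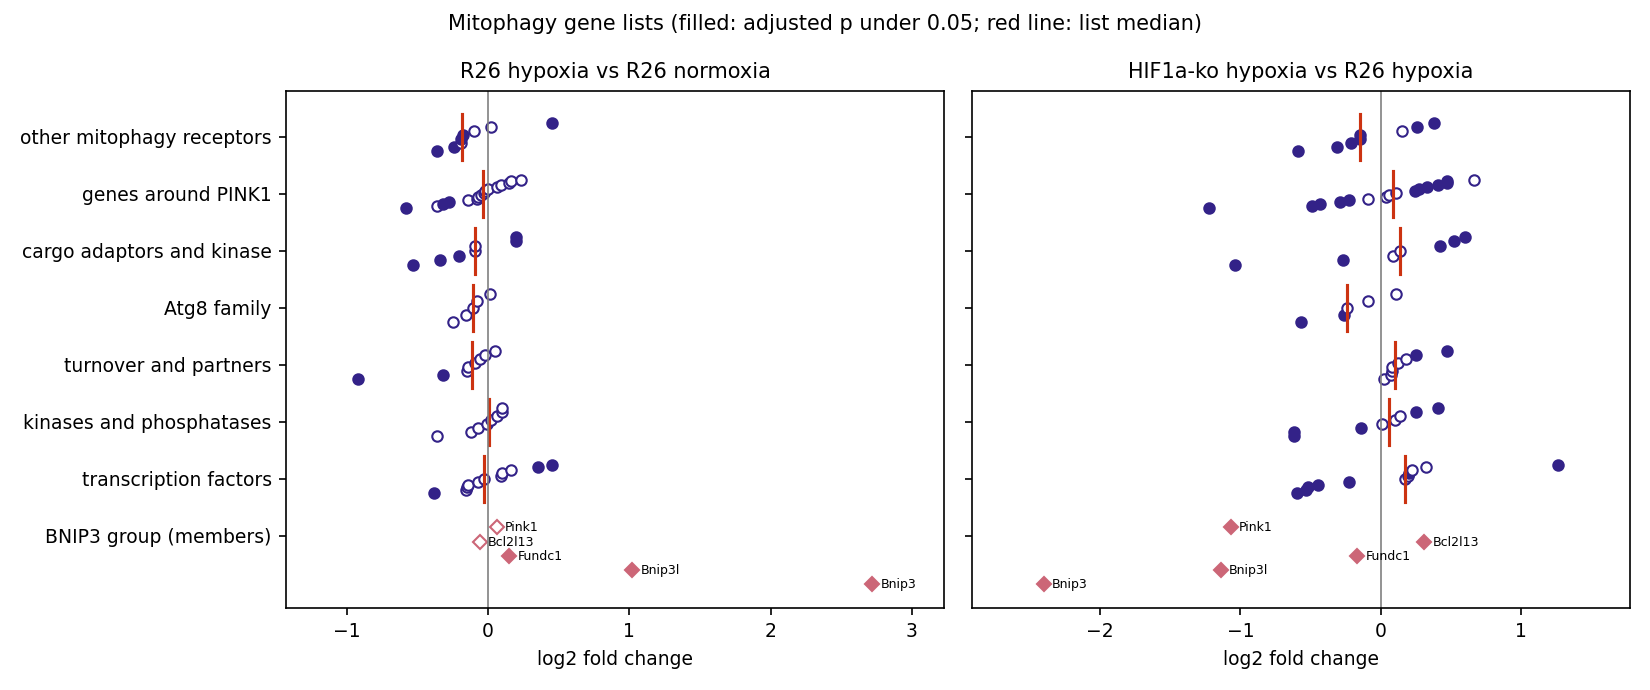
Log2 fold change (horizontal axes) of each gene of the 7 lists and of the 5 described genes, with filled symbols for an adjusted p under 0.05 and red lines for list medians. Bnip3 (2.72 and -2.40) and Bnip3l (1.02 and -1.14) lie away from the list medians, which run from -0.24 to 0.17 over both panels. Single genes also do so in HIF1a-ko hypoxia against R26 hypoxia, among them Atf4 (1.26), Usp35 (-1.22), Calcoco1 (-1.04) and the described gene Pink1 (-1.07).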

How the data were processed

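The authors deposited raw read counts for each Ensembl gene, as whole numbers. The tools named per the submitters' processing notes are featureCounts, STAR, Trimmomatic, bcl2fastq 2.17 and DESeq2, with build GRCm38. How strand and multiply matching reads were handled, and on which annotation release, is not given in the sources used here. Of 49315 identifiers, 49056 were paired with a GENCODE M21 symbol. Columns were matched to samples by name, 1 of them by the same 4 parts in another order.

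Genes were tested with edgeR 4.0.16 (R 4.3.3; TMM, filterByExpr, glmQLFit and glmQLFTest, two-sided, group as the only term, all 9 libraries in 1 fit). Benjamini-Hochberg adjustment ran over 18211 genes, and changed means an adjusted p under 0.05. CPM values use the TMM factors, and levels per kilobase divide CPM by the merged exon length. Each library held at least 43837809 counts, and within each group the chi-square per degree of freedom of any 2 libraries was at least 6.18, so none agreed within sampling noise. The method was tested on simulated counts in which few genes changed, in 1 group only, and with no effect of depth class. That simulation therefore does not cover data with many changed genes or a depth effect. Alternatives were DESeq2 1.42.0, other scaling, no filter, 2 groups only, a replicate block, a depth term, shallower libraries only and leaving out each library.

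The 5 genes, the lists and the tests were chosen with earlier results of these data known. Up to 3 highest and 3 lowest changed genes per list could be named where the average log2 CPM was 1 or more; Epas1, Bcl2 in HIF1a-ko cells and genes whose calls changed with the settings were named after their values were seen. The result of 1 listed gene is not reported here. Between R26 hypoxia and R26 normoxia, deviations of same-numbered libraries correlate at 0.48, 0.53 and 0.855. Libraries 1 and 2 also correlate across numbers at 0.498 and 0.587, and the deeper library is number 3 in both groups. The deeper HIF1a-ko hypoxia 1 correlates at 0.828 with R26 hypoxia 3 and at 0.837 with R26 normoxia 3. With the same-numbered R26 hypoxia 1 and R26 normoxia 1 it correlates at -0.656 and -0.616, so between HIF1a-ko and R26 libraries the likeness followed depth class and not number. Between the R26 groups, libraries 1 and 2 were about as alike across numbers as within them. For number 3 of the R26 groups, a pairing by replicate number and a likeness by depth cannot be told apart.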

Additional observations from a re-analysis of the deposited data

How the results depend on the processing

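Of 240 member fold changes under 16 alternatives, 228 kept the call, and the 56 ratio values kept direction. Changes called in the main fit kept direction, but those not called could change sign. Fundc1 in HIF1a-ko hypoxia against R26 normoxia, at -0.02, ran from -0.04 to 0.02. The 48 counts of members called stayed within 1.5 times, a rule that a fall from 3 to 2 members also meets. Such a fall occurred for R26 hypoxia against R26 normoxia in the shallower libraries. Fundc1 in R26 hypoxia against R26 normoxia missed the threshold with no filter on low counts (0.17, adjusted p = 0.0804) and in the shallower libraries (0.17, adjusted p = 0.0626), and ran from 0.13 to 0.18 with a library left out. Fundc1 in HIF1a-ko hypoxia against R26 hypoxia missed it with no filter (-0.16, adjusted p = 0.0612), with the replicate block (-0.18, adjusted p = 0.0625) and in the shallower libraries (-0.16, adjusted p = 0.0585), and ran from -0.20 to -0.15 with a library left out. Bnip3l in HIF1a-ko hypoxia against R26 normoxia passed it with depth class as a term (-0.11, adjusted p = 0.0345). Causes were not tested. Genes changed in R26 hypoxia against R26 normoxia numbered 7259 with the replicate block and 6959 with depth class, against 4591. The replicate numbers did not pair HIF1a-ko with R26 hypoxia libraries (correlations -0.656, 0.574 and -0.651) or with R26 normoxia libraries (-0.616, 0.587 and -0.667). With that block 6761 and 6240 genes changed. Beside Fundc1, the block changed no call of the 5 genes. In HIF1a-ko hypoxia against R26 hypoxia it took the changed genes from 7 to 3 among the other receptors and from 2 to 1 among the turnover genes, and against R26 normoxia the genes around PINK1 that rose from 6 to 3. Of 336 list counts, 39 moved by more than 1.5 times. With 3 libraries a group, the exact tests of ratios cannot go below p = 0.1.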
